A study of Mus musculus with 6 samples.

Results

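Neat1, Malat1 and 7 genes of proteins that build or regulate paraspeckles were followed through 6 RNA libraries of tumour regulatory T cells. The set was chosen by function, with earlier results of these data known. It holds 9 of the 54446 genes in the deposited count tables, matched by Ensembl identifier to the GENCODE M21 symbols Neat1, Malat1, Nono, Sfpq, Pspc1, Tardbp, Rbm14, Hnrnpk and Matr3. Neat1 itself was picked because its level was higher in the libraries labelled Ythdf2 cKO, so its difference between those groups is given as a description, with no test. All 9 genes passed the filter on low counts.

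Regulatory T cells (Treg cells), which express Foxp3 and hold immune responses in check, were sorted as live CD45+ CD4+ Foxp3-GFP+ cells from subcutaneous tumours of B16F10, a mouse melanoma line. The 3 libraries labelled Ythdf2 cKO (genotype Foxp3CreYthdf2fl/fl) came from mice with both Ythdf2 alleles floxed, and the 3 control libraries (labelled WT Control, genotype Foxp3CreYthdf2fl/+) from mice with 1 floxed allele. Both groups carry a Cre recombinase driven by Foxp3, which limits the deletion to Foxp3-expressing cells, and the controls are not wild type at the Ythdf2 locus. Ythdf2 cKO replicate 1 and control replicates 1 and 2 came from cage 1, and Ythdf2 cKO replicates 2 and 3 and control replicate 3 from cage 2. Age and sex of the mice are not given in the labels, and whether the libraries are separate animals is not stated. The p-values thus set differences against the spread between these libraries, which may be partly technical. In the fit of the group alone that spread also holds the difference between cages.

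Paraspeckles are nuclear bodies that form around the long noncoding RNA Neat1. Its long isoform is the scaffold, on which proteins of the DBHS family (Nono, Sfpq and Pspc1, which pair with each other and bind RNA) assemble, and the bodies hold RNAs and proteins in the nucleus. Malat1 is transcribed from the neighbouring gene and gathers at nuclear speckles, where splicing factors are stored. Ythdf2 encodes a cytoplasmic protein that recognises the RNA modification N6-methyladenosine (m6A) and speeds up the decay of the RNAs that bear it, and Malat1 is a known carrier of that mark.

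The mature 3′ ends of long Neat1 and of Malat1 carry no poly(A) tail. RNase P cuts both RNAs, and the new end is protected by a triple helix of U-rich and A-rich stretches. Libraries of total RNA, as used here, can hold such RNAs. The 2 sequences are shown because this 3′ end sets Neat1 and Malat1 apart from the 7 polyadenylated mRNAs of the set. They are the last 100 bases of the longest annotated Neat1 transcript (mm10, chr19:5824708-5824807, minus strand) and the 100 bases of Malat1 that end with the same A-rich run (chr19:5795982-5796081, minus strand), written 5′ to 3′ as DNA from the GENCODE M21 transcripts, with the runs of at least 11 bases found in both windows in capitals.
Neat1: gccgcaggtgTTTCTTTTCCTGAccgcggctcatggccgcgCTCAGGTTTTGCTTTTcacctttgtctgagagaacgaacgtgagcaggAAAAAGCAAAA
Malat1: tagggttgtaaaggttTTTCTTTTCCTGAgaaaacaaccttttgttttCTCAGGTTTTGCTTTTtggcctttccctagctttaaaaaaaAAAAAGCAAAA
The 3 shared runs were 13, 16 and 11 bases long and stood in the same order. The last of them forms the annotated end of Neat1, while the annotated Malat1 gene runs on for 292 bases beyond it.

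Both RNAs lie on the minus strand of chromosome 19 (mm10), Malat1 (ENSMUSG00000092341) at 5795690 to 5802672 and Neat1 (ENSMUSG00000092274) at 5824708 to 5845478. The longest annotated transcript of each is a single exon that spans the gene, so reads anywhere in it count. The counts do not separate the short Neat1 isoform, which overlaps the 5′ part of the long one, from the long isoform. GENCODE M21 also places 3 small RNA features of 152, 110 and 122 bases inside Neat1 on the same strand. They held 0 counts in all 6 libraries, and how the authors' counting treated reads in them is not given in the sources used here.

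Library facts that touch the results are few. The libraries held from 5602053 to 9960861 gene counts in the Ythdf2 cKO group and from 8923124 to 13602069 in the control group. Ythdf2 itself was at 99.5 ± 8.14 CPM (counts per 1000000, with library sizes scaled by TMM, the trimmed mean of M-values) in the libraries labelled Ythdf2 cKO and 106 ± 15.9 CPM in the control libraries (SD, n = 3 each; log2 fold change -0.098, edgeR quasi-likelihood test, adjusted p = 1.00). The transcript thus gave no check of the labels, and directions are given for the libraries as labelled. The counts cover all exons of Ythdf2, and the labels do not say which the floxed allele removes. All 9 Treg markers, Foxp3 and Cd4 among them, had reads in every library, but their summed level did not overlap between cages, at 2642 to 5375 CPM in cage 2 and 6687 to 7336 CPM in cage 1 (on total gene counts, as for the other marker sums). Reads of other cells were present as well: the summed level of 12 melanoma markers ran from 86.4 to 4231 CPM in Ythdf2 cKO libraries and from 481 to 4239 CPM in control libraries, with cage 2 the higher cage. In Ythdf2 cKO and control libraries, the sums were 9.28 to 258 CPM and 40.9 to 344 CPM for 9 macrophage and monocyte markers, 8.13 to 121 CPM and 2.79 to 39.1 CPM for 4 fibroblast markers, 7.83 to 28.0 CPM and 7.96 to 13.3 CPM for 4 CD8 and NK markers, and 5.71 to 108 CPM and 0.285 to 13.2 CPM for 3 erythroid markers. The B cell markers Ms4a1, Cd79a and Cd79b summed to 8.57, 5.62 and 6.91 CPM in Ythdf2 cKO replicates 1, 2 and 3, against 5.23, 5.74 and 3.14 CPM in control replicates 1, 2 and 3. For these 3 markers the groups overlapped, and the sum was highest in the library that was also highest for Neat1 and Malat1. A further marker of that list is not reported here, so this overlap does not describe the whole list. Ythdf2 cKO replicate 1, the library highest for Neat1 and Malat1, had the fewest gene counts (5602053). It also had the highest Treg sum (7336 CPM) and CD8 and NK sum (28.0 CPM). Its melanoma sum (86.4 CPM) and macrophage and monocyte sum (9.28 CPM) were the lowest. The part of depth and of other cells in the results was not tested. The share of mitochondrial ribosomal RNA was 42.6% in control replicate 3 and 9.97% to 19.2% elsewhere. In bulk RNA, fewer cells of a type and less RNA per cell cannot be told apart.

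Neat1, the paraspeckle scaffold, was higher in every library labelled Ythdf2 cKO than in every control library. It had 194, 145 and 151 CPM in Ythdf2 cKO replicates 1, 2 and 3, against 93.9, 116 and 105 CPM in control replicates 1, 2 and 3. The lowest Ythdf2 cKO library thus stood above the highest control library, and the highest of all was Ythdf2 cKO replicate 1. The means were 163 ± 26.7 CPM in Ythdf2 cKO libraries and 105 ± 11.1 CPM in control libraries (SD, n = 3 each), a log2 fold change of 0.64. These values rest on 1183, 1498 and 1457 reads in the Ythdf2 cKO libraries and 1063, 1714 and 663 reads in the control libraries, for which counting alone gives an error of 2.42% to 3.88% per library. The coefficient of variation between libraries was larger, 16.4% in the Ythdf2 cKO group and 10.5% in the control group. Groups without overlap in this direction were found for 3.4% of the 13172 genes tested, and since Neat1 was chosen on this contrast nothing is read from that.

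The following values are descriptions too, since Neat1 was chosen on this contrast. In cage 1 the Ythdf2 cKO library lay 0.89 above the mean of the control libraries on the log2 CPM scale, and in cage 2 the Ythdf2 cKO libraries averaged 0.50 above the control library. With cage as a further term the log2 fold change was 0.69. With each library left out in turn it ran from 0.49 to 0.71, and scaling by total counts alone gave 0.78 and moved the median of all genes to 0.14.

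**Figure D1:**
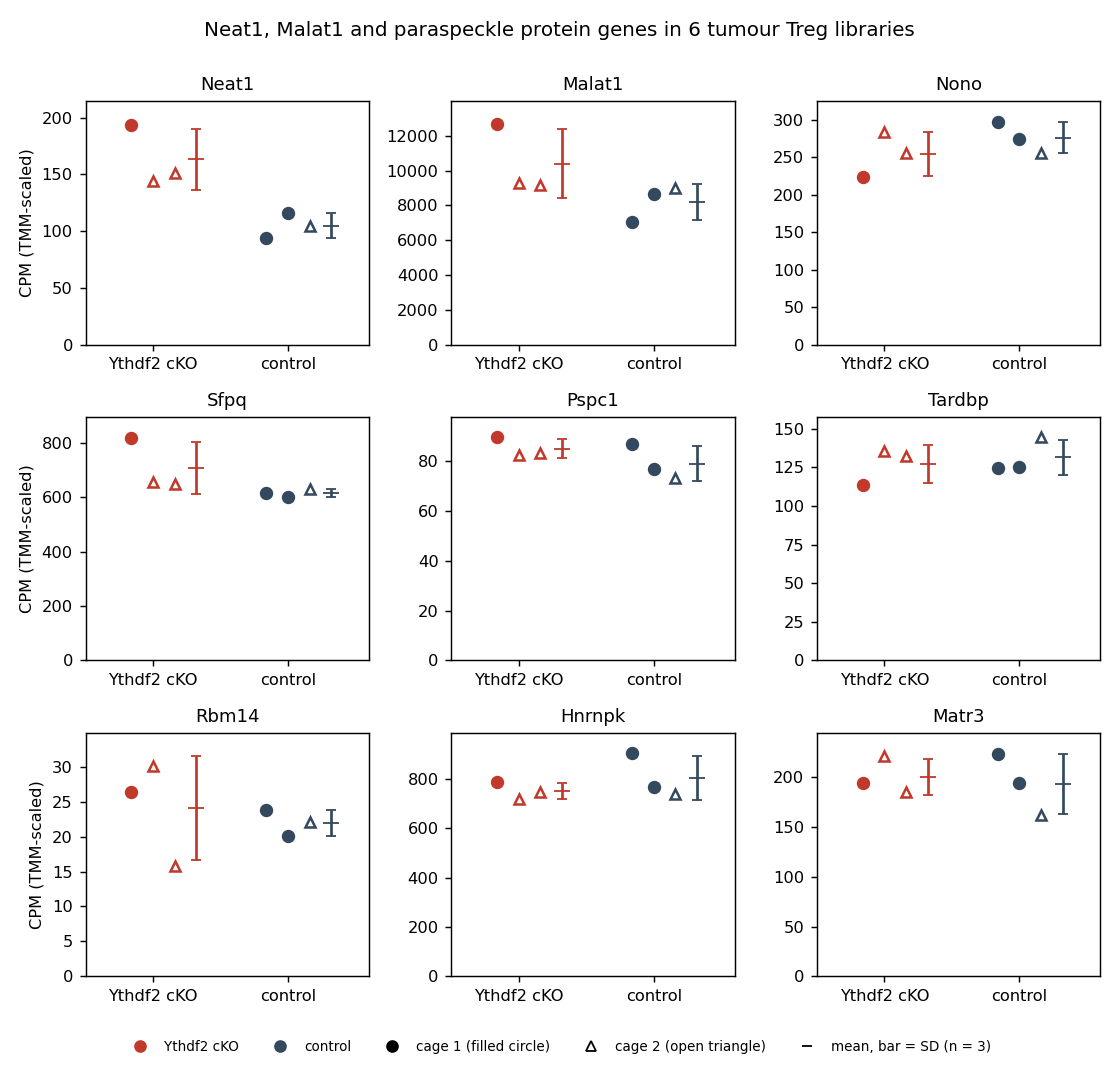
Level of each of the 9 genes (CPM with TMM-scaled library sizes, axes starting at 0) in the 3 Ythdf2 cKO libraries (red, left) and the 3 control libraries (dark grey-blue, right); filled circles are cage 1, open triangles cage 2, and the bar to the right of each group is the mean with its SD. Neat1, Malat1 and Sfpq do not overlap between the groups, and Ythdf2 cKO replicate 1 is the highest library for Neat1, Malat1, Sfpq and Pspc1 and the lowest for Nono and Tardbp.

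Malat1, the nuclear speckle RNA, was among the most abundant RNAs of these libraries, ranking 6 of 13172 genes by mean CPM. It had 12680, 9302 and 9198 CPM in Ythdf2 cKO replicates 1, 2 and 3, against 7037, 8635 and 8983 CPM in control replicates 1, 2 and 3. The groups did not overlap, but the gap between the lowest Ythdf2 cKO library and the highest control library was narrow and replicate 1 of each group lay far from the other libraries. The means were 10394 ± 1981 CPM in Ythdf2 cKO libraries and 8218 ± 1038 CPM in control libraries (SD, n = 3 each). The log2 fold change was 0.34 (SE 0.27, 95% interval -0.29 to 0.97) and did not pass the threshold of 0.05 (edgeR, adjusted p = 1.00).

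Malat1 gave different values in the cages, without passing the test of that difference. It was 0.70 higher on the log2 CPM scale in the Ythdf2 cKO library of cage 1 than in the control libraries of that cage, and 0.042 higher in the Ythdf2 cKO libraries of cage 2. The group by cage term was -0.65 (SE 0.24; edgeR, adjusted p = 0.30). Leaving out Ythdf2 cKO replicate 1 brought the log2 fold change to 0.17, and leaving out control replicate 1 to 0.23. With cage as a term it was 0.37 (SE 0.16; edgeR, adjusted p = 0.49).

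The ratio of Neat1 to Malat1 within a library does not depend on how libraries are scaled. There were 15.3, 15.5 and 16.4 Neat1 reads per 1000 Malat1 reads in Ythdf2 cKO replicates 1, 2 and 3, against 13.3, 13.4 and 11.6 in control replicates 1, 2 and 3. The Ythdf2 cKO libraries lay close together and all above the control libraries. The means were 15.8 ± 0.611 and 12.8 ± 1.01 reads per 1000 in Ythdf2 cKO and control libraries (SD, n = 3 each), a mean log2 difference of 0.30. Because Neat1 was chosen on this contrast the ratio is a description, with no test. Per kilobase of exon Malat1 was far above Neat1, by 181-fold to 195-fold in Ythdf2 cKO libraries and by 221-fold to 255-fold in control libraries.

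Reads that the counting assigned to no gene were a larger share of every Ythdf2 cKO library than of any control library. Such reads can lie between genes, in introns or, depending on the strand setting, opposite a gene. They made up 35.8%, 30.6% and 28.6% of all records in Ythdf2 cKO replicates 1, 2 and 3, against 26.2%, 28.3% and 24.6% in control replicates 1, 2 and 3. The highest value belonged to Ythdf2 cKO replicate 1, the library with the most Neat1 and Malat1. Groups without overlap fix the result of an exact two-sided permutation test at p = 0.1, the smallest that 3 against 3 can give. Set against these reads, Neat1 had 312, 281 and 322 reads per 1000000 reads in no gene in the Ythdf2 cKO libraries, against 234, 262 and 184 in the control libraries, without overlap. That is a description, since Neat1 was chosen on this contrast and the measure was added after seeing the data. Malat1 on that measure overlapped, at 20398, 18094 and 19591 reads per 1000000 reads in no gene in Ythdf2 cKO libraries and 17514, 19469 and 15797 in control libraries.

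**Figure D2:**
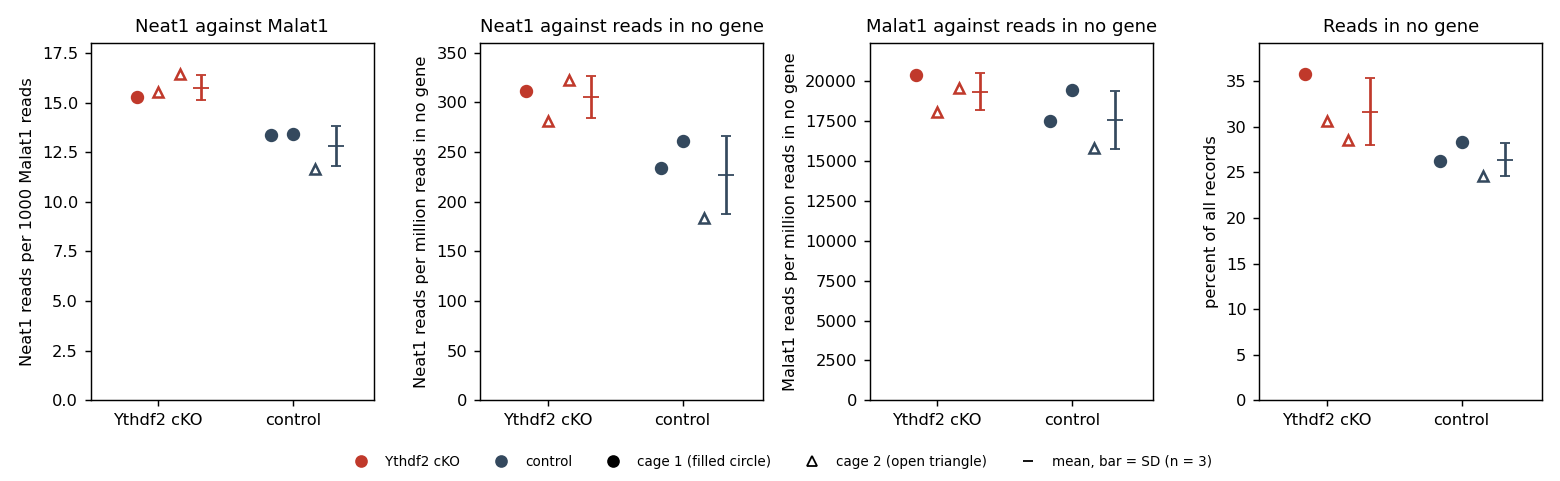
From left to right, Neat1 reads per 1000 Malat1 reads, Neat1 reads per 1000000 reads in no gene, Malat1 reads per 1000000 reads in no gene, and reads in no gene as percent of all records, for Ythdf2 cKO libraries (red, left) and control libraries (dark grey-blue, right), with mean and SD (n = 3 each). The groups are apart in both Neat1 panels and in the share of reads in no gene, and overlap for Malat1 against reads in no gene. Neat1 was chosen on this contrast, so its panels are descriptions.

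The DBHS proteins are the core partners of Neat1, and none of their 3 mRNAs passed the test between the groups. Sfpq, which is required for paraspeckles and also acts in splicing and transcription, had 818, 655 and 648 CPM in Ythdf2 cKO replicates 1, 2 and 3, against 616, 599 and 629 CPM in control replicates 1, 2 and 3. The groups did not overlap, and Ythdf2 cKO replicate 1 stood well above the other libraries. Its log2 fold change was 0.20 (SE 0.16, 95% interval -0.17 to 0.58; edgeR, adjusted p = 1.00), and 0.079 once Ythdf2 cKO replicate 1 was left out. On the same strand Sfpq overlaps the annotated transcript Gm12940, which held 56 to 165 counts, so part of its reads may have been set aside.

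Nono, likewise required for paraspeckles, had 224, 283 and 256 CPM in Ythdf2 cKO replicates 1, 2 and 3, against 297, 274 and 256 CPM in control replicates 1, 2 and 3. The groups overlapped, and Ythdf2 cKO replicate 1, highest for Sfpq, was the lowest for Nono. Its log2 fold change was -0.12 with a 95% interval from -0.47 to 0.23 (edgeR, adjusted p = 1.00). Beside a median of 0.14 over all genes, it was 0.011 when libraries were scaled by total counts alone. With 1 library left out it lay between -0.21 (Ythdf2 cKO replicate 2) and -0.038 (Ythdf2 cKO replicate 1), with -0.064 for control replicate 1.

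Pspc1, a family member that paraspeckles can form without, had 89.6, 82.3 and 83.2 CPM in Ythdf2 cKO replicates 1, 2 and 3, against 86.8, 76.9 and 73.1 CPM in control replicates 1, 2 and 3. The Ythdf2 cKO libraries lay above the control libraries of their own cage in both cages, but the groups overlapped across cages. The log2 fold change was 0.11 with a 95% interval from -0.22 to 0.44 (edgeR, adjusted p = 1.00). It was 0.062 once Ythdf2 cKO replicate 1 was left out, 0.18 once control replicate 1 was, and 0.24 with total counts alone.

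Within the DBHS family, shares of the summed reads per kilobase of exon do not depend on library scaling. Sfpq took 72.1%, 63.6% and 65.2% in Ythdf2 cKO replicates 1, 2 and 3, against 61.0%, 62.4% and 65.0% in control replicates 1, 2 and 3. Nono took 21.4%, 29.8% and 27.9% in the Ythdf2 cKO libraries, against 31.9%, 31.0% and 28.7% in the control libraries. Pspc1 kept a narrow range, from 6.53% to 6.92% in Ythdf2 cKO libraries and from 6.25% to 7.11% in control libraries. Ythdf2 cKO replicate 1 stood apart from the other libraries, and the groups overlapped for all 3 genes.

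The mean share of Sfpq was 66.9% ± 4.52 in Ythdf2 cKO libraries and 62.8% ± 2.06 in control libraries (SD, n = 3 each; exact two-sided permutation p = 0.2, adjusted p = 0.3 over the 3 genes). That of Nono was 26.4% ± 4.42 and 30.5% ± 1.64 in Ythdf2 cKO and control libraries (exact permutation p = 0.2, adjusted p = 0.3), and that of Pspc1 6.69% ± 0.205 and 6.66% ± 0.434 (exact permutation p = 1, adjusted p = 1). In cage 2 the Ythdf2 cKO libraries differed from the control library by 0.158 percentage points for Nono and -0.676 for Sfpq, while in cage 1 the differences were -10.1 and 10.4. Leaving out Ythdf2 cKO replicate 1 brought the difference in mean share to 1.56 percentage points for Sfpq and -1.66 for Nono, from 4.13 and -4.15 with all libraries. With 3 libraries a group no p below 0.1 can be reached.

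**Figure D3:**
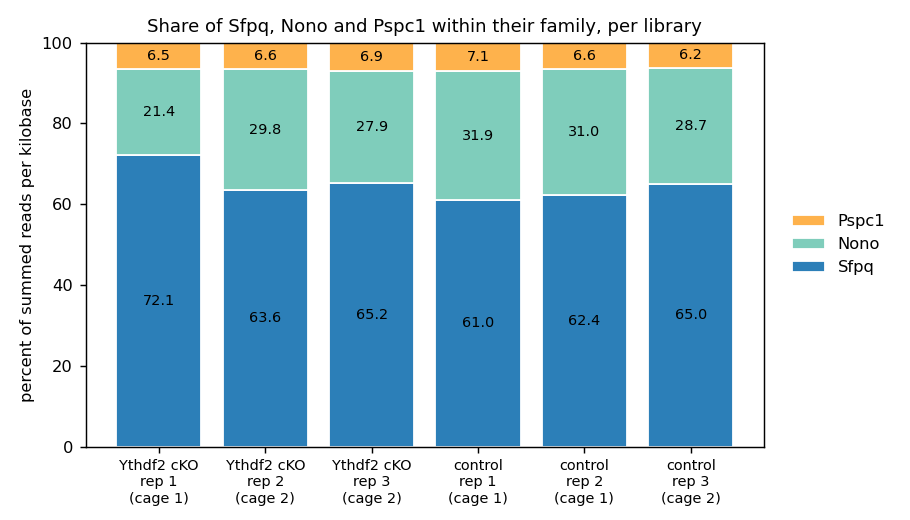
Share of Sfpq (blue), Nono (green) and Pspc1 (orange) in their summed reads per kilobase of exon, in percent, with 1 bar per library, Ythdf2 cKO libraries left and control libraries right. Sfpq is at 72.1% in Ythdf2 cKO replicate 1 and between 61.0% and 65.2% in the other libraries.

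The remaining proteins act on Neat1 or on paraspeckle assembly in other ways. Hnrnpk, which favours the long Neat1 isoform by hindering 3′ end processing of the short one, had 787, 721 and 748 CPM in Ythdf2 cKO replicates 1, 2 and 3, against 906, 769 and 741 CPM in control replicates 1, 2 and 3. The groups overlapped and control replicate 1 was the highest. Its log2 fold change was -0.098 with a 95% interval from -0.47 to 0.27 (edgeR, adjusted p = 1.00). Beside a median of 0.14 over all genes, it was 0.032 when libraries were scaled by total counts alone. It was -0.0096 with control replicate 1 left out and -0.051 with cage as a term.

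Tardbp encodes TDP-43, an RNA-binding protein that favours the short Neat1 isoform. It had 113, 136 and 132 CPM in Ythdf2 cKO replicates 1, 2 and 3, against 125, 125 and 145 CPM in control replicates 1, 2 and 3. It was the 1 gene of the set for which the Ythdf2 cKO libraries lay below every control library of their own cage in both cages, a pattern shown by 18.5% of all genes tested. Across cages the groups overlapped, with a log2 fold change of -0.046 (95% interval -0.38 to 0.29; edgeR, adjusted p = 1.00). It was 0.025 with Ythdf2 cKO replicate 1 left out and 0.055 with control replicate 3 left out. Scaled by total counts alone it was 0.11, beside a median of 0.14 over all genes.

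Rbm14, which helps paraspeckles assemble through its prion-like domain, was the least abundant member and the most variable in the Ythdf2 cKO group. It had 26.4, 30.1 and 15.8 CPM in Ythdf2 cKO replicates 1, 2 and 3, against 23.8, 20.0 and 22.1 CPM in control replicates 1, 2 and 3. Both the highest and the lowest library were Ythdf2 cKO libraries. The log2 fold change was 0.13 with a 95% interval from -0.54 to 0.80 (edgeR, adjusted p = 1.00), and -0.074 without Ythdf2 cKO replicate 2. The whole Rbm14 gene but for its edge is also covered on the same strand by the annotated gene Gm21992, which held 0 to 37 counts, and how reads in both genes were assigned is not known.

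Matr3 encodes matrin 3, a nuclear matrix protein that binds RNA. It had 194, 221 and 185 CPM in Ythdf2 cKO replicates 1, 2 and 3, against 223, 194 and 162 CPM in control replicates 1, 2 and 3, and the groups overlapped. The log2 fold change was 0.051 with a 95% interval from -0.33 to 0.44 (edgeR, adjusted p = 1.00). It was -0.034 without Ythdf2 cKO replicate 2 and -0.032 without control replicate 3. On the same strand the annotation places Gm28285 over 25571 bases of Matr3, but that gene is not among the genes counted. Gm36989, with 47 to 117 counts, lies over 2160 bases of Matr3, and how reads in both were assigned is not known.

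In the comparison of Ythdf2 cKO with control libraries, then, 0 of the 8 members other than Neat1 passed the adjusted threshold with edgeR, where 0% of the 13172 genes tested passed in either direction. At an unadjusted p under 0.05 in the fit of the group alone the count was also 0 of 8, against 1.62% of all genes. That 0 depends on the fit: with cage as a term Malat1, alone of the 8, fell under the unadjusted level but not the adjusted one. DESeq2 and limma-voom called 0 of the 13172 genes after adjustment. Without the filter on low counts edgeR called 33 genes, 0 of them among the 8. Their log2 fold changes lay between -0.12 and 0.34, with 5 above 0 and 3 below, where 49.3% and 50.7% of all genes were, and a median of 0.079, beside -0.0049 over all genes. Malat1 and Sfpq were the 2 of 8 without overlap between the groups, both higher, where 3.4% of all genes were higher and 4.22% lower without overlap. Malat1, Sfpq and Pspc1 (3 of 8) lay above the control libraries of their own cage in both cages, where 14.5% of all genes did. The intervals still allow changes: for Nono, Pspc1, Tardbp, Hnrnpk and Matr3 none of the upper bounds passed 0.44 and none of the lower bounds -0.47 on the log2 scale, while Malat1 and Rbm14 were less well bounded.

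**Figure D4:**
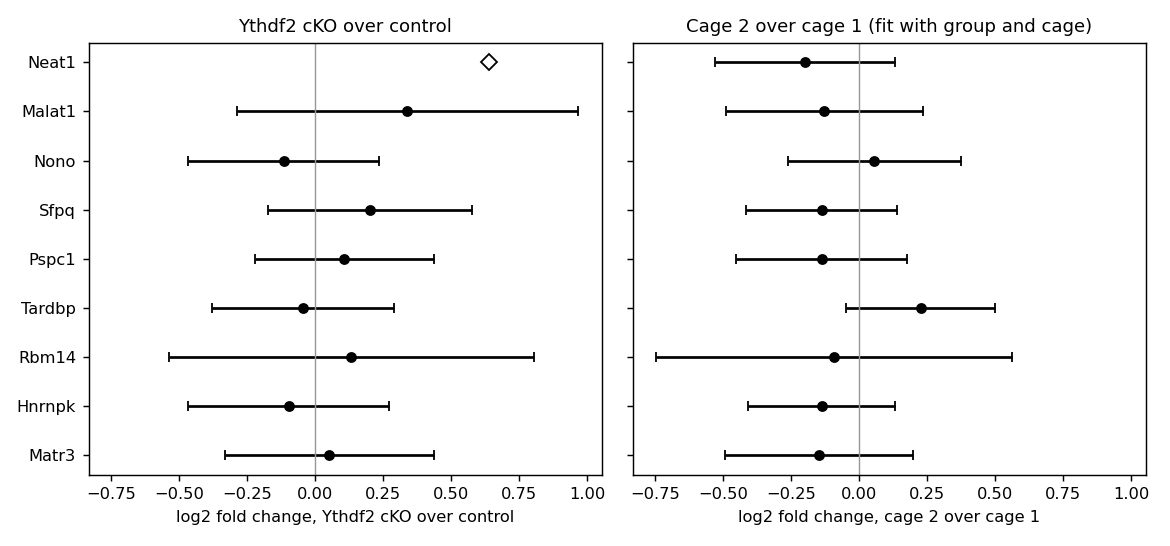
Log2 fold changes of the 9 genes for Ythdf2 cKO over control (left) and for cage 2 over cage 1 in the fit with group and cage (right); points are edgeR estimates and bars 95% intervals, and the open diamond is Neat1, given without an interval because it was chosen on that contrast. All intervals drawn include 0.

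The cage was a second division of these libraries that the choice of genes did not use directly. Cage and group are partly confounded, so the cage value of Neat1, fitted beside the group, is not free of that choice. None of the 9 genes passed the test between cages, which 1516 genes of the table did. Fitted beside the group, 0 of 9 members passed between cage 2 and cage 1 (edgeR, adjusted p from 0.28 to 0.88), where 11.5% of all genes tested did. Neat1 averaged 133 ± 25.2 CPM in cage 2 and 135 ± 52.5 CPM in cage 1 (SD, n = 3 each), a log2 fold change of -0.20 (95% interval -0.53 to 0.13; edgeR, adjusted p = 0.43). That value was -0.014 once Ythdf2 cKO replicate 1 was left out, -0.37 once control replicate 3 was, -0.0054 with cage alone in the fit and -0.53 with total counts alone. Malat1 averaged 9161 ± 163 CPM in cage 2 and 9451 ± 2909 CPM in cage 1 (log2 fold change -0.13, edgeR, adjusted p = 0.66). The narrow spread of Malat1 in cage 2 and the wide one in cage 1 are visible in the plot of levels by library.

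Tardbp and Hnrnpk were the 2 members whose cages did not overlap. Tardbp stood at 138 ± 6.21 CPM in cage 2 and 121 ± 6.63 CPM in cage 1, and it had the largest cage difference of the set in size, 0.23 on the log2 scale with a 95% interval from -0.047 to 0.50 (edgeR, adjusted p = 0.28). Scaling by total counts alone gave -0.11, with the median of all genes at -0.32. Hnrnpk stood at 737 ± 14.1 CPM in cage 2 and 821 ± 74.5 CPM in cage 1, with a log2 fold change of -0.14 (edgeR, adjusted p = 0.51). Cages without overlap were found for 15.1% of all genes in the higher direction and 12.2% in the lower, so 1 of 9 each way is near the background.

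Whether the Ythdf2 cKO difference itself varied with the cage was tested with a group by cage term, which rests on single libraries in 2 of the 4 combinations. With edgeR 0 of 9 members passed (adjusted p from 0.30 to 0.97), where 0.0456% of all genes did. The smallest was Malat1, given above. Nono gave 0.43 (SE 0.24, adjusted p = 0.45) and Sfpq -0.38 (SE 0.22, adjusted p = 0.46), in opposite directions.

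In CPM per kilobase of exon the 9 genes spanned a wide range of levels. Malat1 was highest at 1333 ± 265 (SD over the 6 libraries), above Sfpq at 139 ± 16.8 and Hnrnpk at 120 ± 10.3. Nono followed at 60.6 ± 5.88, then Matr3 at 19.4 ± 2.25, Tardbp at 16.6 ± 1.37, Pspc1 at 14.3 ± 1.07, Neat1 at 6.45 ± 1.77 and Rbm14 at 5.89 ± 1.27. Ranges over libraries overlapped between the neighbours Sfpq and Hnrnpk, Matr3 and Tardbp, Tardbp and Pspc1, and Neat1 and Rbm14. Neat1 was the higher of the last pair in 3 of 6 libraries, while each other gene named first in those pairs was higher in 5 of 6. The Neat1 value is an average over all 20771 bases of the gene.

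The genes whose level followed Neat1 most closely were sought over the 6 libraries, as the smallest root mean square difference between centred log2 CPM profiles among 9396 genes. They were Rab11fip3, an adaptor of recycling endosomes (0.085), Ptpmt1, a mitochondrial phosphatase of cardiolipin synthesis (0.089), Tmem191c (0.096), Fancg, a Fanconi anaemia repair protein (0.11), and Cdc26, a subunit of the anaphase-promoting complex (0.12). Rab11fip3, for instance, had 32.8, 27.8 and 25.2 CPM in Ythdf2 cKO libraries, against 17.2, 21.2 and 20.4 CPM in control libraries. Because Neat1 was chosen for its higher level in Ythdf2 cKO libraries, genes close to its profile share that difference by construction. Nothing is read from their difference between the groups. For Malat1 the closest were Mon2 (0.067), Rab6a, a GTPase of Golgi traffic (0.071), Ralgapa2 (0.076), Ptpra, a receptor tyrosine phosphatase (0.079), and Rnf14 (0.083). Mon2 had 133, 97.1 and 95.3 CPM in Ythdf2 cKO libraries, against 82.2, 97.2 and 93.7 CPM in control libraries. Among the members, Pspc1 and Hnrnpk were the closest pair (0.10), and Malat1 was closer to Sfpq (0.14) than to any other member. Pspc1 and Hnrnpk varied little, with a highest library 1.23 and 1.26 times the lowest. Their log2 fold changes between groups had opposite signs (0.11 and -0.098). Malat1 and Sfpq shared their highest library, Ythdf2 cKO replicate 1.

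The 5-base sequence GGACT is the most common form of the m6A motif, and its count was taken from the longest annotated transcript of each gene, on the transcribed strand, for 13165 tested genes. Neat1 held 23 in 20771 bases, or 1.11 per kilobase, and Malat1 held 9 in 6983 bases, or 1.29 per kilobase. The median over all transcripts was 0.998 per kilobase, with quartiles of 0.581 and 1.46, and 89.8% held at least 1, so both long noncoding RNAs lay between the median and the upper quartile. Nono was the densest of the set at 1.95 per kilobase. Sfpq had 0.866, and the other members lay below the lower quartile, from 0.243 in Pspc1 to 0.570 in Rbm14. A match is a run of letters and not a methylated site.

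Lists of related genes were described by their counts and medians. In the fit of the group alone, 0 of their members passed between Ythdf2 cKO and control libraries with edgeR. In that fit 0 had an unadjusted p under 0.05, against 1.62% of all genes tested. That 0 depends on the fit. With cage as a term U2af2, Hnrnph1, Srsf3, Bcl11a and Frmd8 were among the list genes under the unadjusted level. After adjustment 0 of the 13172 genes passed with that term. The list values below are from the fit of the group alone unless stated. Of 37 further paraspeckle proteins 34 were tested, 17 above 0 and 17 below, with a median log2 fold change of -0.010. Those with the smallest p were Bcl11a, a lymphoid transcription factor, at 5.32 CPM in Ythdf2 cKO libraries and 1.75 CPM in control libraries (means, n = 3 each), Hnrnph1, a splicing regulator, at 311 and 254 CPM, and Rbm12 at 26.5 and 19.8 CPM. Bcl11a was read at a low level, with 39, 53 and 43 reads in Ythdf2 cKO replicates 1, 2 and 3. Control replicates 1, 2 and 3 had 9, 12 and 23 of its reads. The part of other cells in its level was not tested. Of 23 nuclear speckle proteins 11 were above 0 and 12 below, with a median of -0.019. U2af2, which recognises the 3′ splice site, was at 70.3 CPM in Ythdf2 cKO libraries and 92.0 CPM in control libraries. Srsf3 was at 159 and 131 CPM and the splicing kinase Clk4 at 90.9 and 79.9 CPM.

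The list of subunits of RNase P, which cuts Malat1 and Neat1, and of the tRNA 3′ endonuclease Elac2 had the lowest median of the lists. Of 11 listed 9 were tested, 3 above 0 and 6 below, with a median log2 fold change of -0.26. Elac2 was at 19.7 CPM in Ythdf2 cKO libraries and 28.6 CPM in control libraries, Rpp30 at 2.36 and 6.47 CPM, and Rpp14 at 5.33 and 7.93 CPM. Cage 1 alone gave a median of -0.42 and cage 2 alone -0.22. With a library left out it ran from -0.49 (Ythdf2 cKO replicate 2) and -0.46 (control replicate 2) to -0.17 (control replicate 1). Scaled by total counts alone it was -0.15, beside a median of 0.14 over all genes. It was -0.11 among genes with a mean CPM of at least 5. All were read at low levels: no mean passed 23.8 CPM in Ythdf2 cKO libraries or 28.6 CPM in control libraries, and Rpp30 had a single read in Ythdf2 cKO replicate 1.

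Other nuclear long noncoding RNAs were set beside Neat1 and Malat1. Of 9 listed 6 were tested, 5 above 0 and 1 below, with a median log2 fold change of 0.11, which was 0.22 without Ythdf2 cKO replicate 1. Firre was at 23.5 CPM in Ythdf2 cKO libraries and 18.5 CPM in control libraries, Airn at 2.89 and 1.87 CPM and Tug1 at 93.7 and 89.0 CPM. Among the protein-coding neighbours on chromosome 19, 13 of 14 listed were tested, 6 above 0 and 7 below, with a median of -0.098. With total counts alone that median was 0.077, beside 0.14 over all genes. It was 0.042 with cage as a term and 0.033 without control replicate 2. Frmd8, the nearest of them upstream of Neat1, was at 56.4 CPM in Ythdf2 cKO libraries and 48.0 CPM in control libraries (log2 fold change 0.23, SE 0.25; edgeR, adjusted p = 1.00). Kcnk7 was at 1.81 and 0.590 CPM and Pola2 at 27.7 and 32.8 CPM.

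**Figure D5:**
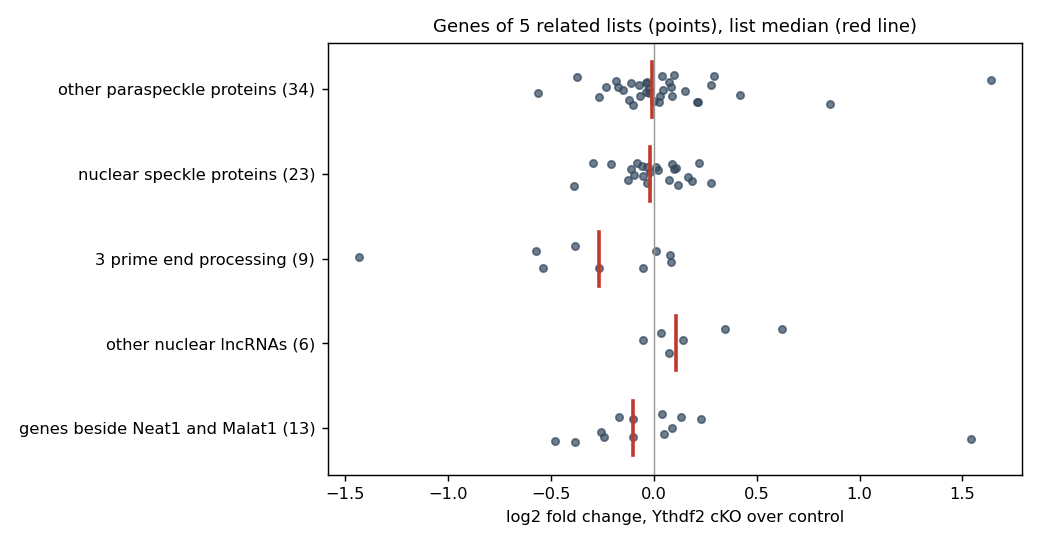
Log2 fold change, Ythdf2 cKO over control, of each tested gene (points) in 5 lists of genes related to Neat1 and Malat1, with the number tested in brackets and the list median as a red line. The medians lie between -0.26 and 0.11.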

How the data were processed

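The deposited values are raw read counts per gene, 1 table for each of 6 libraries of total RNA made with a stranded kit (SMARTer, Takara), per the labels' protocols. Per the submitters' processing notes the tools were Trimmomatic 0.39, HISAT2 2.1.0, HTSeq and DESeq2, with the mm10 build. Which annotation release and which strand setting HTSeq used is not given in the sources used here, and genes that overlap on either strand are uncertain for that reason. Reads aligned to several places (9.22% to 12.9% of records) and ambiguous reads (1.43% to 2.21%) were in rows that name no gene and stayed out of library sizes and tests. Of 54446 genes 54409 matched GENCODE M21. Every pair of libraries differed by more than sampling noise (chi-square of at least 16.8 per degree of freedom over genes).

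Genes were filtered with filterByExpr (minimum count 10, minimum total 15), scaled by TMM and tested over all 13172 genes with the quasi-likelihood test of edgeR 4.0.16 in R 4.3.3, with Benjamini-Hochberg adjustment and a threshold of 0.05. The fit held the group alone, the group and cage, or both with their product. Standard errors and intervals came from the F statistic. Log2 CPM used a prior count of 2. Shares were compared by exact two-sided permutation over libraries. Alternatives were DESeq2 1.42.0, limma-voom (limma 3.58.1), other scalings and filters, a replicate block, the cage as a term, and each library left out. The scripts were tested on simulated counts. Read counts are not independent molecules, so counting errors are lower limits.

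The members and lists were chosen with earlier results of these data known. Named list genes are the up to 3 with the smallest p, and genes like Neat1 or Malat1 are the 5 closest with a mean CPM of at least 5, without Gm and Rik names, pseudogenes and members. 1 marker of another cell type is not reported here.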

Additional observations from a re-analysis of the deposited data

Results flagged for a closer look

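The share of reads that the counting assigned to no gene was higher in the libraries labelled Ythdf2 cKO than in the control libraries. It averaged 31.7% ± 3.69 of all records in Ythdf2 cKO libraries and 26.4% ± 1.83 in control libraries (SD, n = 3 each; exact two-sided permutation p = 0.1, the smallest that 3 against 3 can give), and every Ythdf2 cKO library lay above every control library. The share is listed here because the groups did not overlap, which fixes the permutation p, so that p adds nothing. Within cage 1 the difference was 8.51 percentage points and within cage 2 it was 4.98. Its part in the levels of Neat1 and Malat1 was not tested beyond the ratios to these reads given in the report.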

How the results depend on the processing

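Of 263 values of single members under the alternatives, Neat1 between groups not among them, 17 turned direction and 0 passed the adjusted threshold. For Ythdf2 cKO over control, the direction turned with total counts only for Nono (0.011), Tardbp (0.11) and Hnrnpk (0.032). That scaling put the median of all genes at 0.14, above these values. With a library left out the direction turned for Tardbp (-0.10 to 0.055), Rbm14 (-0.074 to 0.36) and Matr3 (-0.034 to 0.16). For cage 2 over cage 1 it turned with total counts only for Nono (-0.28) and Tardbp (-0.11), where the median of all genes was -0.32. The cage direction also turned with cage only for Nono (-2.04e-04), and with a library left out for Malat1 (-0.44 to 0.19), Nono (-0.17 to 0.29), Sfpq (-0.31 to 0.042), Rbm14 (-0.29 to 0.092) and Matr3 (-0.37 to 0.080). The Pspc1 share difference ran from -0.181 to 0.251 percentage points with a library left out. Neat1 over reads in no gene, chosen after seeing the data, gave a mean log2 difference of 0.44 against 0.30 over Malat1.

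The genes called between Ythdf2 cKO and control libraries were 33 without the low-count filter and 0 otherwise, with 0 to 0 when a library was left out. Between cages 1516 genes were called (1031 higher, 485 lower), 2349 with DESeq2, 2347 without the filter, 849 (703 higher, 146 lower) with cage only and 660 to 1234 with a library left out (735 without control replicate 2, 826 without Ythdf2 cKO replicate 1, 660 without Ythdf2 cKO replicate 3), where the lower calls were 65 to 376 (65 without Ythdf2 cKO replicate 3, 129 without control replicate 2, 166 with either Ythdf2 cKO replicate 1 or control replicate 3 left out, 309 with Ythdf2 cKO replicate 2 left out); total counts only split the calls into 646 higher and 732 lower. The causes were not tested. Control replicate 3 and Ythdf2 cKO replicate 1 could not be left out together, since group and cage could then not be told apart. With the replicate number as a block the count of calls between groups stayed 0. The number does not pair the libraries: deviations of same-numbered libraries correlated at 0.41, -0.236 and 0.547, Ythdf2 cKO replicate 1 correlated best with control replicate 2 (0.459), and the replicates numbered 2 come from different cages. For Neat1 the counting error was smaller than the spread between libraries.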
